A study of Mus musculus with 20 samples.

Results

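The genes described here are 7 mouse genes whose signal was lower in mouse embryonic fibroblasts (MEFs) given 4 Gy serum than in those given control serum: Opn1mw, Dpf1, Kcnc4, Pacs1, Slc18a2, Lipg and Rbm3. They were picked for that difference in the 10-day set, so their values there are a description without a test. Only the 20-day set holds measurements that the rule of choice did not use, though earlier results of these data were known by then. All probes whose accession mapped through RefSeq to these genes were taken, which gave 9 of the 41174 probes on the array for 7 of its 17178 named genes. Pacs1 and Slc18a2 had 2 probes each, and every other gene had 1. Of the 26227 probes tested across the whole array, 8 belonged to these genes. The remaining one, Slc18a2 probe A_51_P469550, was well above background on 1 array in each group and was not tested.

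MEFs are fibroblasts taken from mouse embryos, and here they were kept for 24 hours with serum from females of the inbred mouse strain C3H/HeN. The 10-day set compared serum of non-irradiated mice (0 Gy) with serum of mice irradiated at 4 Gy, and the 20-day set compared 0 Gy serum with serum of mice irradiated at 8 Gy. The mice were irradiated, not the cells, under a regime called L/MDR without further explanation, and dose and days change together between the sets. Each of the 4 groups had 5 one-colour arrays of total RNA. Whether the 5 replicates of a group were separate cultures, or used serum of separate mice, is not stated. The p-values therefore reflect only how far these arrays differ, and that spread may be technical.

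These 7 genes do not form 1 pathway. Opn1mw encodes the middle-wavelength cone opsin, a light receptor of the retina. Kcnc4 encodes a voltage-gated potassium channel subunit of fast-spiking neurons and muscle, and Slc18a2 the transporter that loads dopamine, serotonin, noradrenaline and histamine into vesicles. Pacs1 encodes an adaptor that returns membrane proteins such as furin to the trans-Golgi network, and Lipg a secreted lipase of endothelial cells that cuts phospholipids of high-density lipoprotein. Dpf1 encodes a subunit of the BAF chromatin remodelling complex of neurons, and Rbm3 an RNA-binding protein that is induced by mild cold.

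Promoter sequences are shown for the 3 genes whose signals went most closely together across arrays, Dpf1, Kcnc4 and Pacs1, and for Opn1mw, which had the lowest change of all tested probes in the 10-day set. Each is the 250 bases before a transcription start that the RefSeq promoter table lists for the gene in GRCm38.p6, 5′ to 3′ on the strand of the gene. For Kcnc4 and Dpf1 that start lies inside the full RefSeq span of the gene, and for Pacs1 the first of 2 listed starts was taken. Capitals mark a GC box (GGGCGG or its reverse complement CCGCCC) or a TATA motif (TATAAA or its reverse complement TTTATA). The stretches lie at chr7:29303755-29304004 on the plus strand for Dpf1, chr3:107458899-107459148 on the minus strand for Kcnc4, chr19:5273120-5273369 on the minus strand for Pacs1, and chrX:74127216-74127465 on the plus strand for Opn1mw. RefSeq sequences were matched for 5 of the 7 genes.
Dpf1: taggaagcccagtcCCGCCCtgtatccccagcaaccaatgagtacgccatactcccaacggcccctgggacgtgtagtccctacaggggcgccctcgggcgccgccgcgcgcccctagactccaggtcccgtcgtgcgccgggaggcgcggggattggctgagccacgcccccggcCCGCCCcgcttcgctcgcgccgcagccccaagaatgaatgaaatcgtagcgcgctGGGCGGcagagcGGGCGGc
Kcnc4: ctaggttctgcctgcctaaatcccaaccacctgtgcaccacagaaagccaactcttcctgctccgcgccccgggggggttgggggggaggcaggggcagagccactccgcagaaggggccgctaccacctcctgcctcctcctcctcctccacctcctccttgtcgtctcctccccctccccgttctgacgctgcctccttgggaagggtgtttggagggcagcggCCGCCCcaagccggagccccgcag
Pacs1: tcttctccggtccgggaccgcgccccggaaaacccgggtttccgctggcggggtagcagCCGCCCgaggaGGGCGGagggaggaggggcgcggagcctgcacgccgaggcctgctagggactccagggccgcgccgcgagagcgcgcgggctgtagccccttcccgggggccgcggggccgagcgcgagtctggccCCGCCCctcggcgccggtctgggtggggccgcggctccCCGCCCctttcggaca
Opn1mw: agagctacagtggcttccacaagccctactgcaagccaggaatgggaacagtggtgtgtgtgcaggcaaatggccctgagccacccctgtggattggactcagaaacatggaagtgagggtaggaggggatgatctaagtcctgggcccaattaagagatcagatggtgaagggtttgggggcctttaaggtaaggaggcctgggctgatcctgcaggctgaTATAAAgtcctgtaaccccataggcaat

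The promoter of Dpf1 held 4 GC boxes and 31 CpG dinucleotides, that of Pacs1 held 4 and 36, and that of Kcnc4 held 1 and 12. For Slc18a2 the same window held 2 GC boxes and 9 CpG dinucleotides. All 4 windows lay above the median of 6 CpG dinucleotides over 32851 promoters of the same length. The Opn1mw window differed: it held 0 GC boxes, 0 CpG dinucleotides and 1 TATA motif, and its GC content of 53.2% lay near the median of 52.4% over all promoters. A GC box occurred in 32.7% and a TATA motif in 12.4% of all promoters. The cAMP response element TGACGTCA and the E-box CACGTG were in none of the 5 matched windows, and in 1.55% and 6.02% of all promoters. These matches are a description of letters, and no factor was measured here.

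Signal is the log2 processed intensity of a probe minus the 75th percentile of its array, so a value of 0 is a probe at that percentile and a difference of 1 is a doubling. The percentile lay between 731 and 1464 intensity units, and 56.8% to 67.2% of probes per array were well above background. The arrays came from 7 slides. Slide 2 held control array 5 and 4 Gy arrays 1 and 2, whereas slides 1 and 3 held only control and only 4 Gy arrays, and each slide of the 20-day set held a single group. All 12 fibroblast markers were well above background on every array. The summed level of 6 macrophage markers (linear signal relative to the percentile) was 0.875 to 1.29 in the 10-day groups and 21.2 to 37.1 in the 20-day groups. Its part in any difference between the sets was not tested.

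**Figure D1:**
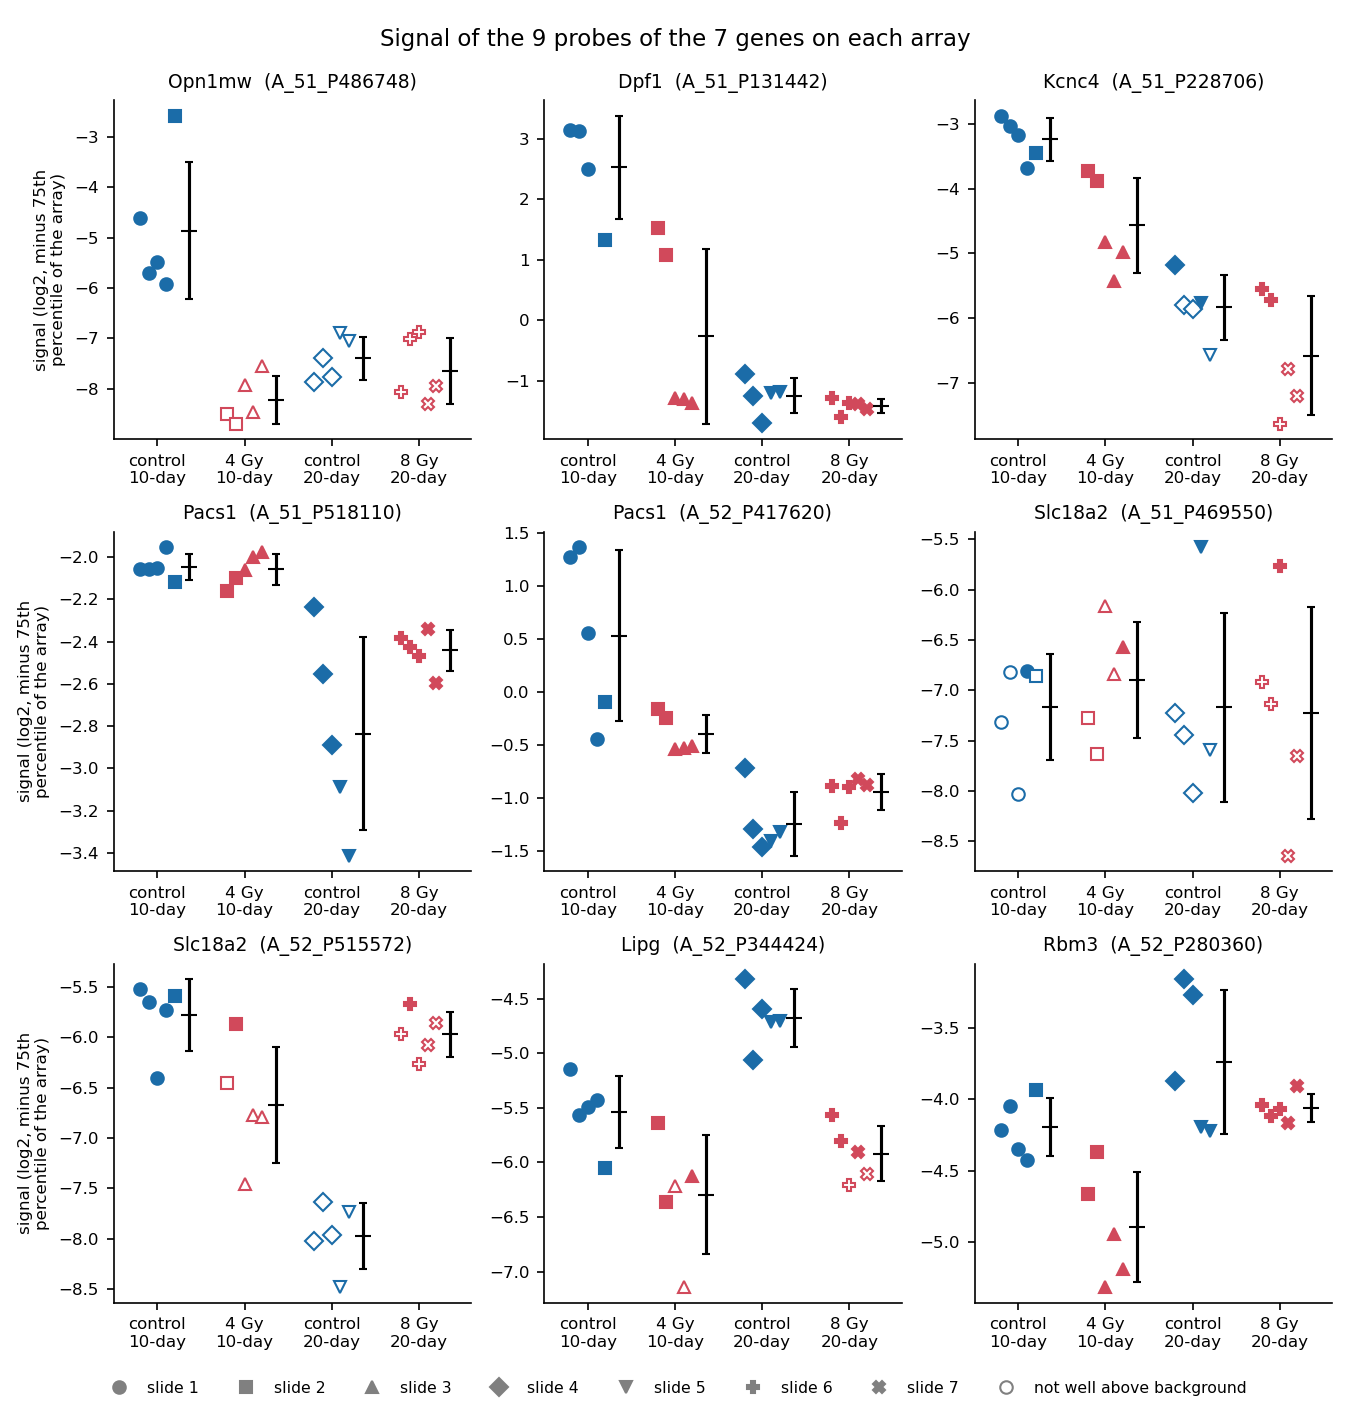
Signal (log2, minus the 75th percentile of the array) of the 9 probes on each array, by group, with marker shapes for slides, open symbols for arrays on which the probe was not well above background, and black bars for mean ± SD (5 arrays a group, 4 for the 10-day controls of Dpf1). In the 10-day set the Opn1mw groups are separate, while the Dpf1 arrays of 4 Gy serum form 2 levels that follow the slide. The Slc18a2 probe A_52_P515572 is lowest in the 20-day controls, at -8.48 to -7.64.

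Opn1mw was the only member whose signal reached background level in a whole 10-day group. Its control arrays 1 to 5 stood at -4.62, -5.70, -5.48, -5.92 and -2.58, all well above background. With 4 Gy serum the arrays stood at -8.50, -8.69, -7.93, -8.45 and -7.55, and none was well above background. The groups did not overlap, and control array 5 stood apart at a processed intensity of 204, against a group median of 28.2. Against the lowest signal well above background on each 4 Gy array, the 4 Gy signal was at least 3.05-fold below the control mean. That mean includes control array 5, and the 4 control arrays of slide 1 alone had a lower mean of -5.43. The bound is smaller without control array 5. The measured means were -4.86 ± 1.37 and -8.22 ± 0.47 (SD, n = 5 each), a difference of -3.36 on the log2 scale. Within slide 2, which holds both sera, the difference was -6.01, and it rests on control array 5. In the 20-day set the probe was not well above background on any of the 10 arrays, at -7.87 to -6.90 with control serum and -8.29 to -6.86 with 8 Gy serum. No fold is given there.

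Photoreceptor markers were at background in these cultures. Of the 6 on the array (among them Crx, Nrl, Pde6b, Sag and Prph2), none was well above background on any 4 Gy, 20-day control or 8 Gy array, and only Sag reached it on any 10-day control array. Their summed level was 0.0203 to 0.0295 with 10-day control serum and 0.0216 to 0.0339 with 4 Gy serum.

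Kcnc4 was the other member whose 10-day groups did not overlap. Its control arrays stood at -2.87, -3.02, -3.16, -3.68 and -3.45, and its 4 Gy arrays at -3.72, -3.88, -4.82, -5.43 and -4.98. The highest 4 Gy array lay just below the lowest control array. The difference was -1.33 ± 0.39 (SE of the limma fit), or 2.52-fold. It was -0.35 within slide 2, and the 4 Gy arrays of slide 3 differed from those of slide 2 by -1.28. Between them, Opn1mw and Kcnc4 were 2 of 8 tested probes with separate, lower 4 Gy groups, against 4.17% of all tested probes; the genes were picked on this contrast and nothing is read from that count.

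With 20-day serum Kcnc4 was dim, well above background on 2 of 5 arrays in each group. The control arrays stood at -5.17, -5.80, -5.86, -5.77 and -6.57 and the 8 Gy arrays at -5.55, -5.71, -7.64, -6.79 and -7.21, and the groups overlapped. The difference of -0.75 ± 0.39 did not pass the test (limma adjusted p = 0.121). It did pass without 8 Gy array 1, when it was -1.0 (limma adjusted p = 0.0400). With the replicate number as a block it also passed (limma adjusted p = 0.0204). That block joined same-numbered arrays across both sets, and the labels state no such pairing. In the 20-day set only 2 of 5 arrays correlated best with their own number, and neighbouring numbers share slides. Nothing is therefore read from the pass with the block. The summed level of 8 neuronal markers was 1.72 to 1.96 with 20-day control serum and 1.17 to 1.45 with 8 Gy serum, with Rbfox3, Snap25, Nefl and Elavl3 well above background on no array of either group. Syp was so on 1 array of each, and Tubb3, Map2 and Stmn2 on all 5 of each. Its part in the Kcnc4 values was not tested.

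Dpf1 had the second lowest change in the 10-day set and followed the slide. Control arrays 1, 2, 3 and 5 stood at 3.15, 3.13, 2.51 and 1.33; the spot of control array 4 was marked as an outlier by the scanner software and left out. The 4 Gy arrays stood at 1.53, 1.08, -1.27, -1.29 and -1.37. The 2 sera met at slide 2, where control array 5 lay between the 4 Gy arrays, and the difference there was -0.03. Over all arrays the means were 2.53 ± 0.85 (SD, n = 4) and -0.26 ± 1.44 (SD, n = 5), a difference of -2.80 ± 0.53 (SE). The 4 Gy mean of slide 3 differed from that of slide 2 by -2.62, and control array 5 differed from the control mean of slide 1 by -1.60.

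The 20-day arrays of Dpf1 lay in a narrow band at the level of slide 3. They stood at -0.89, -1.25, -1.70, -1.20 and -1.18 with control serum and at -1.28, -1.59, -1.35, -1.38 and -1.46 with 8 Gy serum, all well above background. The groups overlapped, and the difference of -0.17 ± 0.50 did not pass the test (limma adjusted p = 0.794). That SE takes the spread of all 20 arrays, including the wide 10-day groups, while the 20-day SDs were 0.29 and 0.12. Fitted on the 10 arrays of the set alone, the difference did not pass either (limma adjusted p = 0.351). With normexp background correction the difference was 0.09. Neuronal markers summed to 1.94 to 2.09 with 10-day control serum and 2.10 to 2.72 with 4 Gy serum, and Tubb3, Map2 and Stmn2 were well above background on all of these arrays. Snap25 and Nefl were so on none, Rbfox3 on 2 control and 5 irradiated arrays, and Syp and Elavl3 on 0 and 1. Its part in the Dpf1 values was not tested.

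Pacs1 was measured by 2 probes that disagreed in the 10-day set. Probe A_52_P417620, the brighter one, stood at 1.28, 1.37, 0.55, -0.45 and -0.09 on the control arrays and at -0.16, -0.25, -0.54, -0.53 and -0.51 on the 4 Gy arrays. Control arrays 1 to 3 were high, and control array 4 lay within the range of the 4 Gy arrays. The difference was -0.93 ± 0.27 (SE), and -0.11 within slide 2. Probe A_51_P518110 stood between -2.12 and -1.95 on the control arrays and between -2.16 and -1.97 on the 4 Gy arrays, a difference of -0.01 ± 0.15. The lower signal of Pacs1 with 4 Gy serum was therefore seen with 1 of its 2 probes, and which part of the transcript each covers was not analysed here.

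Both Pacs1 probes were higher with 8 Gy serum than with 20-day control serum, 1 of them past the threshold. Probe A_51_P518110 stood at -2.23, -2.55, -2.89, -3.09 and -3.41 with control serum and at -2.38, -2.42, -2.47, -2.34 and -2.60 with 8 Gy serum. The 8 Gy arrays lay within the range of the controls, whose slide 5 mean differed from that of slide 4 by -0.69. It rose by 0.39 ± 0.15 (limma adjusted p = 0.0335). The call was lost under 14 of 21 alternatives, including slide as a random block (limma adjusted p = 0.0773) and scaling to the array median (0.25, limma adjusted p = 0.178). It was also lost without any 1 of control arrays 3, 4 or 5 or of 8 Gy arrays 1 to 4, at limma adjusted p-values up to 0.102. Probe A_52_P417620 stood at -0.72, -1.30, -1.47, -1.41 and -1.33 with control serum and at -0.89, -1.24, -0.89, -0.83 and -0.88 with 8 Gy serum, a difference of 0.30 ± 0.27 (limma adjusted p = 0.372).

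Slc18a2 took opposite directions in the sets on probe A_52_P515572. In the 10-day set the control arrays stood at -5.52, -5.65, -6.40, -5.73 and -5.59, all well above background. The 4 Gy arrays stood at -6.46, -5.87, -7.46, -6.77 and -6.79, of which array 2 alone was well above background. The difference was -0.89 ± 0.23 (SE), and -0.57 within slide 2. In the 20-day set the control arrays stood at -8.02, -7.64, -7.96, -8.48 and -7.74, none well above background. With 8 Gy serum they stood at -5.96, -5.67, -6.27, -6.08 and -5.86, with array 2 alone well above background.

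The 20-day groups of Slc18a2 did not overlap, and the signal rose by 2.00 ± 0.23 (limma adjusted p = 2.0e-06). The controls were at background, and 8 Gy array 2 alone was well above it. Against the lowest signal well above background on each control array, the 8 Gy mean was 1.06-fold higher. That mean rests mostly on arrays not well above background, so it is no firm bound. With normexp correction and its offset of 50 the difference was 0.35 (limma adjusted p = 0.0214). The dimmer probe A_51_P469550 gave no such difference, with 20-day means of -7.17 ± 0.94 and -7.22 ± 1.05 (SD, n = 5 each) and 10-day means of -7.17 ± 0.53 and -6.90 ± 0.58 (SD, n = 5 each). In the 20-day groups Th and Slc6a3, the defining markers of dopamine cells, and Cpa3, Tpsb2 and Ms4a2 of mast cells were well above background on no array. Ddc and Tph1, other monoamine cell markers, were well above background on all 5 arrays of each group, Slc6a4 on 3 control and 5 irradiated arrays, and Slc6a2 on 0 and 3. Of the other mast cell markers, Cma1 and Mcpt4 were so on 1 control array and no 8 Gy array. The 7 monoamine cell markers on the array summed to 0.486 to 0.785 with control and 0.477 to 0.558 with 8 Gy serum, and the 5 mast cell markers to 0.0393 to 0.0547 and 0.0309 to 0.0431. Their part in the Slc18a2 difference was not tested.

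Lipg was the member whose lower signal with irradiated-mouse serum also passed the test in the 20-day set. In the 10-day set the control arrays stood at -5.15, -5.56, -5.49, -5.43 and -6.05 and the 4 Gy arrays at -5.64, -6.36, -6.22, -7.14 and -6.12, with 4 Gy arrays 3 and 4 not well above background. The groups overlapped through control array 5, the difference was -0.76 ± 0.22 (SE), and it was 0.05 within slide 2. In the 20-day set the control arrays stood at -4.32, -5.06, -4.59, -4.71 and -4.70, and the 8 Gy arrays at -5.57, -5.81, -6.21, -5.90 and -6.11. Every 8 Gy array lay below every control array. Lipg fell by 1.24 ± 0.22 on the log2 scale, 2.36-fold (limma adjusted p = 0.000149). With slide as a random block it was -1.25 (limma adjusted p = 0.00612). Each 20-day slide held a single group, so that block cannot separate serum from slide. With normexp correction the Lipg difference was -0.29 and missed the threshold (limma adjusted p = 0.0541). The probe was dim: 3 of 5 arrays with 8 Gy serum were well above background. It entered the test through the control groups alone, the higher group in each set. When all arrays of both groups had to be well above background, it was not tested.

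Markers of endothelial cells, the usual source of Lipg, were detected in part. Pecam1, Cdh5 and Tie1 were well above background on no 20-day array, and Tek and Vwf on every one. Kdr was so on 4 control and 5 irradiated arrays, Emcn on 5 and 3. The summed level of the 7 markers was 0.226 to 0.353 with control serum and 0.190 to 0.259 with 8 Gy serum. Its part in the Lipg difference was not tested. In RNA of whole cultures, fewer cells of a type and less RNA per cell cannot be told apart.

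Taking the most changed probe of each gene, Rbm3 had the smallest 10-day difference, and each of the 20 arrays measured it well above background. Its control arrays stood at -4.21, -4.05, -4.35, -4.43 and -3.93, and its 4 Gy arrays at -4.66, -4.37, -5.32, -4.94 and -5.19. Only 4 Gy array 2 lay within the control range. The difference was -0.70 ± 0.20 (SE), or 1.63-fold, and it was -0.58 within slide 2. The 4 Gy mean of slide 3 differed from that of slide 2 by -0.63. In the 20-day set the control arrays stood at -3.87, -3.16, -3.27, -4.20 and -4.22 and the 8 Gy arrays at -4.04, -4.12, -4.07, -4.16 and -3.91. Controls 4 and 5, on slide 5, differed from those on slide 4 by -0.78 on average, and the groups overlapped. The difference of -0.32 ± 0.20 did not pass the test (limma adjusted p = 0.204).

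**Figure D2:**
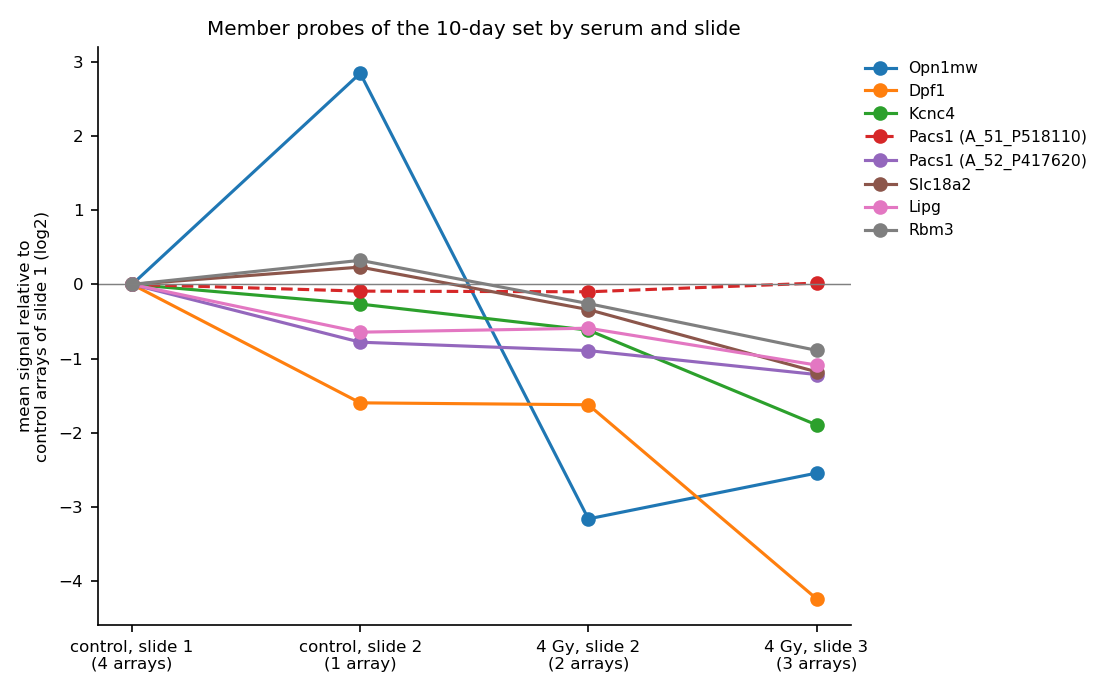
Mean signal of the 8 tested probes in the 10-day set (log2), relative to the mean of the control arrays of slide 1, for control serum on slides 1 and 2 and 4 Gy serum on slides 2 and 3. Dpf1 differs by -0.03 between the sera within slide 2 and Opn1mw by -6.01, and 5 probes step down from slide 2 to slide 3 without overlap.

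Across the members, slide and serum could be compared only on slide 2. On 5 of 8 probes (Dpf1, Kcnc4, Pacs1 A_52_P417620, Slc18a2 and Rbm3) all 3 of the 4 Gy arrays of slide 3 lay below both 4 Gy arrays of slide 2, which occurred for 27.7% of all tested probes. On 3 of 8 (Dpf1, Pacs1 A_51_P518110 and Lipg) the control array of slide 2 lay below all controls of slide 1, against 29.9% of all probes. Within slide 2, both 4 Gy arrays lay below the control array on 5 of 8 probes, against 36.6% of all probes. The genes were picked for a lower 4 Gy signal on these same arrays, so nothing is read from these counts. The within-slide differences ran from -0.58 to -0.35 for Rbm3, Slc18a2 and Kcnc4 and from -0.11 to 0.05 for both Pacs1 probes, Dpf1 and Lipg. With 1 control array on that slide they have no replicate check. In the 10-day contrast 5.25% of all probes passed the limma test (1378 of 26225; 1.4% lower), and 1 probe passed with slide as a random block.

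**Figure D3:**
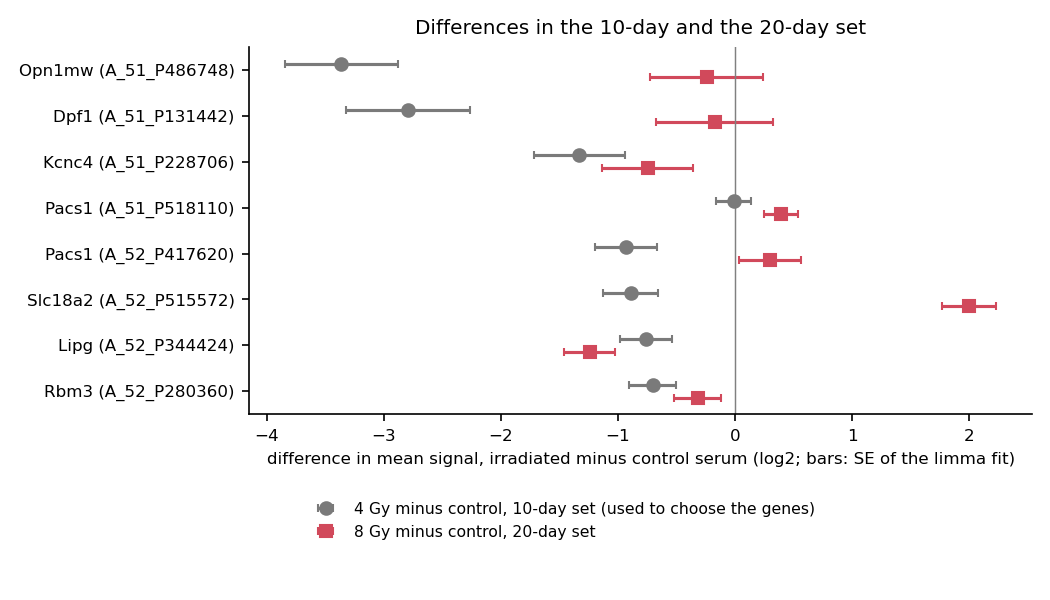
Difference in mean signal between irradiated and control serum (log2) for the 8 tested probes, with grey circles for the 10-day set, which chose the genes, red squares for the 20-day set, and bars for the SE of the limma fit. Lipg lies below 0 in both sets. Slc18a2 stands at -0.89 in the 10-day and 2.00 in the 20-day set, where its controls were at background and 8 Gy array 2 alone was well above it.

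In the 20-day set, whose arrays the rule of choice did not use, 3 of the 8 tested probes passed the threshold. Lipg was lower, and Slc18a2 and Pacs1 A_51_P518110 were higher. Over all probes 48.0% passed in either direction (27.4% lower and 20.6% higher), so that count lies near the background. The fit took its spread from all 20 arrays, which include the 10-day arrays that chose the genes. Fitted on the 10 arrays of the set alone, Lipg and Slc18a2 passed, among 9898 of 26226 probes. Pacs1 A_51_P518110 then did not pass (limma adjusted p = 0.136). The groups did not overlap for Lipg, among 18.1% of all probes that were separate and lower, nor for Slc18a2, among 11.4% separate and higher. The median 20-day difference of the 8 probes was -0.21, against -0.06 for all probes. Opn1mw and Slc18a2 passed the filter on dim probes through the 10-day controls alone, Lipg through both control groups and Kcnc4 through both 10-day groups. Scaling to the array median moved the median of all probes to -0.20 and the share of higher among the passing probes from 42.9% to 27.7%. Under it Slc18a2 remained higher by 1.86 (limma adjusted p = 4.5e-06) and Lipg lower, at -1.38 (limma adjusted p = 8.1e-05).

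Described across all arrays, the members formed no single pattern. Dpf1 and Pacs1 A_52_P417620 went together most closely (Pearson r = 0.92 over 19 arrays), then Dpf1 and Kcnc4 (r = 0.87) and Kcnc4 and Pacs1 A_52_P417620 (r = 0.80). All 3 were highest with 10-day control serum and lower in both 20-day groups, and the arrays share slide and set. Lipg and Rbm3 were instead highest in the 20-day controls (r = 0.56 with each other). Lipg did not follow Dpf1 (r = 0.02), and Slc18a2 and Lipg ran against each other (r = -0.53). All these correlations include the 10-day arrays that chose the genes, so a shared fall there is partly built in.

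The named genes most like each member over the arrays were found by Pearson r. They were Olfr1410 (0.96 over 18 arrays) and Dennd3 (0.96 over 19) for Dpf1, and Lpp (0.95) and Ppm1l (0.94) for Kcnc4. For Pacs1 they were Dpf1 itself and Asap1 (0.91). Mga (0.95) and Fam160b1 (0.94) were nearest to Slc18a2, Idh3a (0.91) and Dusp22 (0.90) to Lipg, and Celf4 and Lpgat1 (both 0.91) to Rbm3. Opn1mw had no close match, with Lin7b (0.76) and Ttc41 (0.75) nearest. For Mga, a transcription factor that pairs with Max, the means were -0.05, -0.33, -0.95 and 0.00 in the 10-day control, 4 Gy, 20-day control and 8 Gy groups.

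The paralogs named here did not pass the 20-day test. Of the BAF paralogs of Dpf1, Dpf2 differed by -0.20 (limma adjusted p = 0.0722), and Dpf3 was well above background in the 10-day groups only. Kcnc2 differed by -0.56 (limma adjusted p = 0.0656). Pacs2, the other sorting adaptor of its family, differed by -0.12 (limma adjusted p = 0.117), and Lpl, lipoprotein lipase, by -0.22 (limma adjusted p = 0.277). Cirbp, the other cold-inducible RNA-binding protein, differed by -0.28 (limma adjusted p = 0.10). Slc18a1, the vesicular transporter of endocrine cells, was well above background on no 10-day array but on all 20-day arrays, at -3.14 ± 0.24 with control and -3.57 ± 0.27 with 8 Gy serum (SD, n = 5 each; limma adjusted p = 0.225). Opn1sw, Kcnc1, Slc18a3 and Lipc were too dim to be tested.

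The wider families were read with 1 probe per gene in the 20-day limma fit, in which 16.1% of 12904 named genes passed as higher and 32.8% as lower, with a median difference of -0.13. Of 24 other BAF subunits 6 rose and 7 fell (median -0.08): Smarcd1 rose by 0.87, and Phf10 fell by 0.53 and Bcl7a by 0.45. Of 11 other potassium channel genes 2 rose and 4 fell (median -0.20). Kcnd2 fell by 1.26 and Kcns3 by 0.82, while Kcnd1 and Kcns1 rose from controls that were well above background on no array, so that only bounds hold, at least 1.23-fold and at least 1.44-fold higher. With normexp correction both were 0.28 and lost the threshold (limma adjusted p = 0.104 and 0.154). Kcns1 and the others that passed, Kcnf1 and Kcne4, were named after their values were seen. Of 18 other trans-Golgi sorting genes 1 rose and 4 fell (median -0.10). Ap1g2, an adaptor subunit, rose by 0.49, Ap1b1 fell by 0.46 and the mannose 6-phosphate receptor gene M6pr by 0.45, with Igf2r and Ap1s1 named after their values were seen.

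The remaining lists were read in the same way. Of 9 other genes of monoamine handling, Ddc, which makes dopamine and serotonin, fell by 0.54 and Maoa, which breaks them down, fell by 0.55, and none rose (median -0.08). Of 10 other lipase genes and regulators 4 rose and none fell (median 0.02), whereas Lipg fell. The count includes Liph, which stood 1.02 higher but was well above background on 1 of 5 control arrays and entered the test only through the 8 Gy group, so its call supports nothing. The lipase maturation factors Lmf2 and Lmf1 rose by 0.35 and 0.24, and Scarb1 was the fourth, named after its value was seen. Scaled to the array median, 1 of these 10 rose and 2 fell, and with slide as a random block 1 rose. Of 12 other cold-inducible or cold-shock domain genes 1 rose (Ybx3) and 4 fell (median -0.0012), among them Srsf5 by 0.80 and Rbm4 by 0.37. Ybx3 was named after its value was seen. Of 8 other opsin and phototransduction genes Slc24a2 alone passed (median -0.16), at -0.50 with no 20-day array well above background. The lipase and trans-Golgi lists share Furin, which differed by 0.00 between the groups.

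Among the named family genes, Smarcd1, Phf10, Bcl7a, Kcnd2, Ddc, Srsf5 and Ybx3 kept their direction and passed under each of 6 alternatives chosen after seeing the data (3 scalings, normexp, slide as a random block and the replicate block). The rest lost the threshold under at least 1 of these. The trans-Golgi counts moved from 1 higher and 4 lower to 0 and 8 when scaled to the array median. They were 1 and 1 after quantile normalisation and after cyclic loess scaling, and 0 and 1 with slide as a random block. With normexp they were 2 and 4, and the replicate block left them at 1 and 4.

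**Figure D4:**
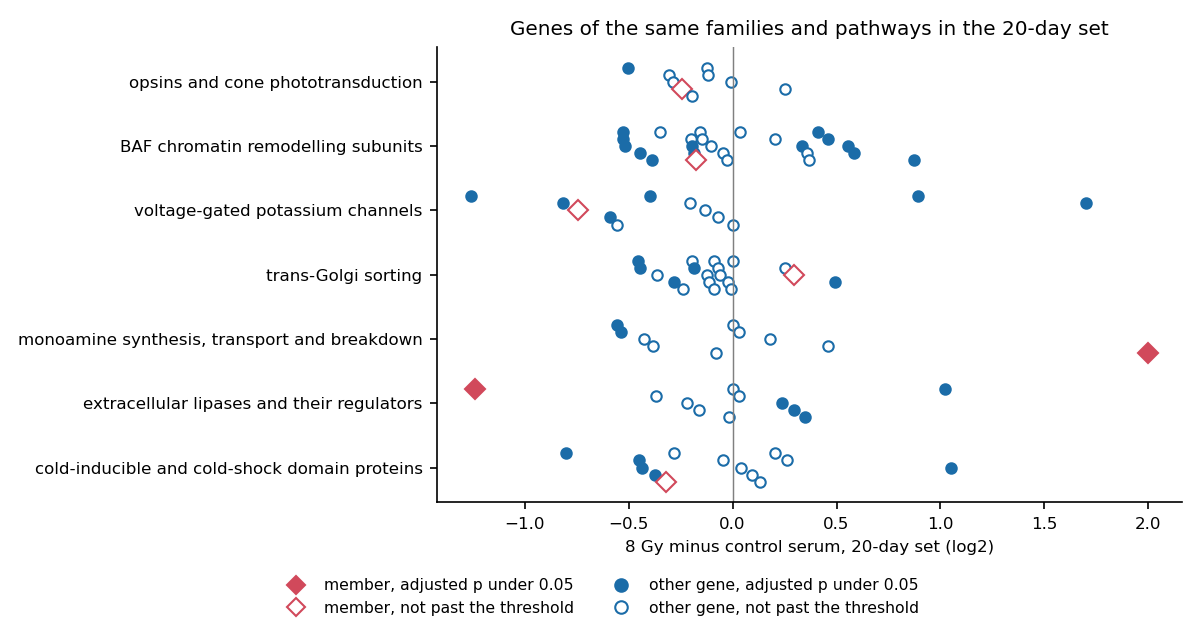
Difference between 8 Gy and control serum in the 20-day set (log2) for the tested genes of 7 families, 1 probe per gene, with red diamonds for the members, blue circles for the other genes, and filled symbols for limma adjusted p-values under 0.05. Lipg lies at -1.24, below every other gene of its list. Slc18a2 is plotted at 2.00, with controls at background and 8 Gy array 2 alone well above it.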

How the data were processed

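The deposited scanner files of the authors hold a processed intensity per spot, background-subtracted within the array, with raw median intensities and 0 or 1 marks of another kind for spots above background, saturated or outlying. They came from Feature Extraction 10.5.1.1 per the file headers, but from version 11.0 per the submitters' processing notes. The authors' deposited value table holds log2 values, centred per set, and correlated with the signals used here at 0.996 or more (per array, centred alike).

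Between 50 and 181 outlier spots per array were dropped, none was saturated, and the spots of a probe were averaged. From each log2 processed intensity, the 75th percentile of its array was subtracted. RefSeq accessions named 24844 probes (17178 genes), and 16330 stayed unnamed. Tested probes were well above background on every array of 1 group or more. One limma 3.58.1 fit (R 4.3.3) of all 20 arrays with a mean per group gave two-sided p-values, adjusted by Benjamini-Hochberg over all tested probes, with a threshold of 0.05. On simulated data for the 20-day contrast over 26227 probes, the script recovered 40.3%, 83.6% and 95.5% of changes of 0.5, 1 and 2 on the log2 scale, with 8 false calls. The simulated noise was independent between arrays, with no slide effect. Only 66 or 67 probes per size were changed, whereas 48.0% of probes passed in the data. These figures therefore do not give the error rate of the real contrast.

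Members and gene lists were chosen with earlier results of these data known. Named genes were all member probes, the closest paralogs, up to 3 passing genes per family list by smallest p, and the 2 genes most correlated with each member; a few genes that this rule names are not reported here. Same-numbered arrays of the 20-day set had correlated deviations (0.13 to 0.40), each above 0.1. Only 2 of 5 correlated best with their own number, and neighbouring numbers also share slides. The 10-day set did not meet this (-0.05 to 0.16). The main fit held no term for replicate number, so its tests are unpaired. Replicate number entered only as a block among the alternatives. Alternatives covered scaling, background correction (normexp with an offset of 50, on median signals, since mean signals were not used here), filter, probes per gene, arrays fitted, slide, replicate block, the authors' table and leaving out each array.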

Additional observations from a re-analysis of the deposited data

Results flagged for a closer look

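Among the 36 combinations of probe and group checked for an array far from the others, 3 were found, and chance flags about 1 in 20 such groups. Pacs1 probe A_52_P417620 stood at -0.72 on 20-day control array 1, above the other controls at -1.47 to -1.30. On the same probe 8 Gy array 2 stood at -1.24, below the other arrays of its group at -0.89 to -0.83. Slc18a2 probe A_52_P515572 stood at -6.40 on 10-day control array 3, below the other controls at -5.73 to -5.52.

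On 2 probes every array with irradiated-mouse serum moved one way against its control mean in the 20-day set and the other way in the 10-day set. Slc18a2 probe A_52_P515572 differed by 2.00 at 20 days, from controls at background, and by -0.89 at 10 days. Pacs1 probe A_52_P417620 differed by 0.30 at 20 days and by -0.93 at 10 days. These differences between the sets were not tested, because the 10-day values chose the genes.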

How the results depend on the processing

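Of the 20-day results, Slc18a2 (probe A_52_P515572) kept its direction and passed the threshold under all 21 alternatives in which it was tested, at 0.35 to 2.40, and Lipg under 20 of 21, all but normexp. Neither was tested when all arrays of both groups had to be well above background. The number of member probes passing was 3, 2 to 3 when 1 array was left out, 4 with the replicate block, and 1 (of 4 tested) when both groups had to be well above background. The block changed no other member's call than that of Kcnc4. Over all probes 12594 passed at 20 days, 8375 with slide as a random block, 12811 with the replicate block and 11625 to 13230 when 1 array was left out.

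At 10 days 1378 probes passed, of which 73.4% were higher. With slide as a random block 1 passed, with slide as a fixed block 27, with the 10 arrays alone 3409 (59.8% higher) and 3404 (59.5%) in the authors' table. The share of higher was 54.8% scaled to the array median and 59.3% after quantile normalisation. Leaving out 1 array gave 38 (without 4 Gy array 4) to 2513 (without 4 Gy array 2), and each of the others except control array 5 moved the count by over 1.5 times.

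Signs turned as follows. At 20 days Opn1mw was 0.13 after quantile normalisation and 0.0055 with normexp, and Dpf1 was 0.0936 with normexp. At 10 days Pacs1 A_51_P518110 was 0.0209 with normexp and -0.0324 to 0.0138 when 1 array was left out (above 0 without control array 4 or 4 Gy array 1), and Lipg was 0.0536 with slide as a fixed block. Normexp also shrank the 10-day differences of the dim probes, to -0.45 for Opn1mw, -0.56 for Kcnc4, -0.23 for Rbm3, -0.04 for Lipg and -0.03 for Slc18a2. The cause was not tested. Signals of Opn1mw, Slc18a2, Lipg and 20-day Kcnc4 lie at or near background, which limits their precision.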
